A study of Homo sapiens with 18 samples.

Results

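NF-kB is a family of transcription factors built from paired subunits. The 10 genes described here encode its 5 subunits (RELA, RELB, REL, NFKB1 and NFKB2) and 5 proteins that act back on it: the inhibitors NFKBIA and NFKBIE, the ubiquitin-editing enzyme TNFAIP3, and the ubiquitin ligases BIRC3 and BIRC2. They were taken by gene symbol from RNA-seq count tables of the human lines H1299 and A549, both grown from non-small cell lung cancers. The tables list 18978 and 20335 genes, 17094 of them in both, and all 10 genes have a row in each. All 10 also passed the filter on low counts in each line, which left 15775 genes tested in H1299, 16008 in A549 and 15816 in the fit of both lines together.

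Each line had 3 groups of 3 libraries, 18 libraries in all. Cells received 30 nM of a control siRNA (siControl), of a SMARTpool against YAP (siYAP) or of one against TAZ (siTAZ). A SMARTpool is a mixture of siRNAs that target 1 transcript, here YAP1 or WWTR1, the gene for TAZ. YAP and TAZ are related co-activators that work with TEAD transcription factors, and the study set their knockdowns side by side. RNA was collected after 48 h, the last 18 h without serum in every group, controls included, and poly(A) RNA was sequenced. The medium was RPMI-1640 for H1299 and DMEM for A549, so line, medium and experiment go together. Both lines are established tumour lines, and a transient knockdown leaves part of the target. The labels number the libraries of each group 1 to 3 and do not say that they came from separate cultures, so a p-value here weighs only how far these libraries scatter, and that scatter may be technical.

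In resting cells the inhibitors hold NF-kB dimers in the cytoplasm. In the canonical route, signals such as TNF lead to loss of the inhibitors and let dimers of RELA with the NFKB1 product enter the nucleus. In the noncanonical route the kinase NIK (gene MAP3K14) builds up, the NFKB2 precursor is cut, and dimers with RELB enter the nucleus. Several of the genes are themselves classical targets of the pathway, so that NF-kB raises its own inhibitors (NFKBIA, TNFAIP3) and some of its own subunits (NFKB2, RELB). The BIRC3 and BIRC2 proteins (cIAP2 and cIAP1) support signalling from TNF receptors and keep NIK low.

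The genes lie apart in the genome except for 1 group. In GENCODE 29 (GRCh38), YAP1 spans chr11:102110461-102233423 on the plus strand. BIRC3 lies at chr11:102317450-102339403 on the same strand, and starts 84.0 kb past the end of YAP1. BIRC2, its close relative, lies at chr11:102347211-102378670 and starts 113.8 kb past that end. Between YAP1 and BIRC3 the annotation places 3 pseudogenes and 1 small RNA gene, none of which has a row in either table. RELA lies at chr11:65653596-65663094, NFKBIA at chr14:35401511-35404749, NFKBIE at chr6:44258166-44265788, TNFAIP3 at chr6:137867188-137883312, RELB at chr19:45001430-45038198, REL at chr2:60881521-60931610, NFKB1 at chr4:102501329-102617302 and NFKB2 at chr10:102394110-102402529.

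RefSeq promoter windows (GRCh38.p14, 250 bases before to 50 after each start) were matched for 8 of the 10 genes, all but RELB and NFKBIE. They are shown as a description of the genes, several of which are classical targets of the pathway. Whether a match had a part in any change after knockdown was not tested. The consensus of NF-kB binding sites, searched on both strands by its letters, was found in 7 of the 13 windows of these 8 genes, some of which have several starts, and in 11.3% of all 35116 windows of that length. The 6 genes with a match in at least 1 window were NFKBIA, BIRC3, TNFAIP3, NFKB1, NFKB2 and REL. The TEAD motif GGAATG, on either strand, was found in 1 of the 13 windows (NFKB1) and in 14.0% of all windows. The AP-1 motif TGANTCA was found in 0 of the 13 and in 7.71% of all windows. A match is a description of the letters, and binding was not measured. RELB and NFKBIE, called lower after siYAP in H1299 as described further on, have no window here. NFKB1 and REL have a match and did not pass that test. Capitals mark the NF-kB matches, on either strand, in these stretches, each read 5′ to 3′ on the strand of its gene; in REL and in the first NFKB2 stretch, matches shifted by 1 base merge.
NFKBIA, chr14:35404750-35404869, minus strand: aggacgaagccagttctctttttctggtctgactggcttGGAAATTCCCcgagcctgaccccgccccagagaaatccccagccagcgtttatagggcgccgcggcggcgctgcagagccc
BIRC3, chr11:102317264-102317383, plus strand: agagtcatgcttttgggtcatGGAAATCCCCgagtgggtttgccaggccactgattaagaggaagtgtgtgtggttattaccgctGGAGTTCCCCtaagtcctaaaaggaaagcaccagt
TNFAIP3, chr6:137867188-137867217, plus strand: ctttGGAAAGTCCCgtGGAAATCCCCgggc
NFKB1, chr4:102501300-102501329, plus strand: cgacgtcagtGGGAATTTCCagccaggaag
REL, chr2:60881517-60881546, plus strand: cgtcagccgcGGGAAATTCCCctcccgcca
NFKB2, chr10:102394461-102394490, plus strand: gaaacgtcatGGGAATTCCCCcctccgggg
NFKB2, chr10:102394490-102394519, plus strand: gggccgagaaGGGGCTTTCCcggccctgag

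Libraries held 16778743 to 20772851 assigned reads in H1299 and 10692671 to 44983651 in A549, where the highest was 4.21 times the lowest. Levels are given as CPM, read counts scaled to a common library size with TMM factors over all 18 libraries, as mean ± SD with n = 3. In H1299, YAP1 was at 76.7, 76.8 and 71.2 CPM in the control libraries and at 11.8, 17.8 and 10.7 CPM after siYAP, 17.9% of control. WWTR1 was at 244, 253 and 210 CPM in those controls and at 33.3, 75.8 and 26.7 CPM after siTAZ, 19.2% of control, so that replicate 2 kept the most. In A549, YAP1 was at 67.1, 65.4 and 66.6 CPM in controls and at 18.9, 17.6 and 22.4 CPM after siYAP, 29.6% of control. WWTR1 there was at 196, 206 and 202 CPM in controls and at 80.4, 58.4 and 60.0 CPM after siTAZ, 32.9% of control. Every library of a knockdown was below every control of its line for its own target. In H1299 the other target lay outside the range of the controls too, without passing the test in the main fit of all 9 libraries. WWTR1 was at 158, 184 and 153 CPM after siYAP, 70.2% of control and below all controls. Its adjusted p was 0.204 with edgeR, 0.0398 with the replicate block, 0.00718 with only the 2 groups compared and 0.00527 without siTAZ replicate 2. With DESeq2 it was 0.415, and without any 1 siControl library it ran from 0.209 to 0.349. YAP1 was at 89.0, 97.1 and 92.3 CPM after siTAZ, 124% of control and above all controls. Its adjusted p was 0.117 with edgeR, 0.0316 with the block, 0.0211 with only the 2 groups compared and 0.0145 without siYAP replicate 2. With DESeq2 it was 0.114, and without any 1 siControl library it ran from 0.147 to 0.256. In A549, WWTR1 after siYAP was at 177, 185 and 176 CPM, 89.0% of control and below all controls. Its adjusted p was 0.0846 with edgeR, 0.011 with only the 2 groups compared and 0.039 with no filter on low counts. It was 0.0141 without siControl replicate 1, and 0.00958 and 0.0185 without siTAZ replicates 1 and 3. With DESeq2 it was 0.625, and without siControl replicates 2 and 3 it was 0.42 and 0.301. With no replicate block it did not pass. YAP1 after siTAZ, at 66.4, 67.6 and 72.8 CPM, overlapped the controls. Each contrast thus compares libraries in which the levels of both transcripts can differ. Of 6 epithelial markers, 3 were at 1 CPM or more in H1299 controls (summed level 364 to 409 CPM) and all 6 in A549 controls (6060 to 7620 CPM). The leukocyte markers summed to at most 0.462 CPM in H1299 libraries and to at most 10.1 CPM in A549 libraries, and PTPRC, CD3E and MS4A1 have no row in the tables used here.

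YAP knockdown in H1299 was followed by lower transcript levels of 6 of the 10 genes, and 0 were higher. NFKBIA, NFKBIE, TNFAIP3, BIRC3, RELB and NFKB2 fell, while RELA, NFKB1, REL and BIRC2 did not pass the test. Over all genes tested, 8.75% were called lower and 16.6% were called in either direction (edgeR's quasi-likelihood F test, Benjamini-Hochberg adjusted p below 0.05). The median change of the 10 genes was -0.51 on the log2 scale, beside 0.01 over all genes tested. The 10 genes were chosen with earlier results of these data known, so their count and median beside all genes are a description. In 9 of the 10 genes all 3 siYAP libraries lay below all 3 controls, which held for 18.9% of all genes tested; the exception was RELA. With the replicate number as a block, 8 of the 10 genes were called, among 4461 genes in place of 2625 over the whole table. In bulk libraries, fewer cells with a transcript and less of it per cell cannot be told apart.

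Among the subunits, RELB and NFKB2 of the noncanonical route were called lower, and RELA, NFKB1 and REL did not pass the test. In NFKB1 and REL, too, all siYAP libraries lay below all controls, and a difference between the routes as such was not tested. RELB, the partner of processed NFKB2, was at 121, 135 and 96.3 CPM in controls and at 84.9, 83.8 and 66.8 CPM after siYAP. All 3 treated libraries were below all controls, and replicate 3 was the lowest of its group on both sides. The log2 change was -0.58 ± 0.13 (SE, adjusted p = 0.0112), a drop to 66.7% of control. NFKB2, whose precursor is cut to make p52, was at 172, 180 and 137 CPM in controls and at 122, 121 and 94.5 CPM after siYAP. Replicate 3 was again the lowest of both groups, and the groups did not overlap. Its log2 change was -0.53 ± 0.16 (adjusted p = 0.0334). RELA, the main transactivating subunit of the canonical route, was at 105, 121 and 102 CPM in controls and at 122, 114 and 110 CPM after siYAP. These groups overlapped, and the log2 change was 0.08 ± 0.09 (95% interval -0.11 to 0.28, adjusted p = 0.55).

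The remaining subunits lay between these. NFKB1, the source of p50, was at 63.8, 57.5 and 60.2 CPM in controls and at 56.9, 50.1 and 52.3 CPM after siYAP. The treated libraries were all lower, by a small margin, and the log2 change of -0.18 ± 0.09 did not pass (95% interval -0.39 to 0.02, adjusted p = 0.201). REL, a subunit known mainly from lymphoid cells, was the least abundant of the 10, at 9.94, 7.97 and 7.80 CPM in controls and 7.77, 6.64 and 5.73 CPM after siYAP. Its log2 change was -0.35 ± 0.15 (adjusted p = 0.138), and it passed with the replicate block (adjusted p = 0.0345). REL shares 5702 exonic bases with AC010733.2 on the same strand, and the strand setting of the counts is not given in the sources used here, so reads of the pair cannot be told apart.

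The inhibitors fell together in H1299. NFKBIA (IkB alpha), the inhibitor that NF-kB rapidly resynthesizes, was at 19.3, 27.0 and 16.3 CPM in controls and at 11.7, 15.4 and 11.0 CPM after siYAP. The highest treated library was still below the lowest control, and replicate 2 was the highest in both groups. The log2 change was -0.71 ± 0.17 (adjusted p = 0.0141), to 61.0% of control. NFKBIE (IkB epsilon), a slower member of the same inhibitor family, was at 47.3, 50.7 and 42.7 CPM in controls and at 31.8, 36.2 and 32.4 CPM after siYAP. The groups did not overlap, and the log2 change was -0.48 ± 0.09 (adjusted p = 0.00484). TNFAIP3 (A20), which edits ubiquitin chains on signalling proteins and so ends the response, was at 15.6, 17.2 and 13.4 CPM in controls and at 10.7, 9.65 and 8.42 CPM after siYAP. The groups did not overlap, and the log2 change was -0.68 ± 0.16 (adjusted p = 0.012). An antisense gene, AL357060.1, shares 95 exonic bases with TNFAIP3, which cannot be told apart here without strand.

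BIRC3 changed the most of the 10 genes. It was at 183, 179 and 117 CPM in controls and at 96.2, 75.1 and 55.5 CPM after siYAP. Replicate 3 was the lowest of both groups, and the difference within each number was -0.93, -1.25 and -1.07 on the log2 scale. The fitted log2 change was -1.07 ± 0.20 (adjusted p = 0.00408), to 47.4% of control. BIRC2, its neighbour and paralog, was at 86.3, 80.3 and 81.3 CPM in controls and at 67.2, 70.3 and 65.2 CPM after siYAP. The treated libraries were all lower, but the log2 change of -0.29 ± 0.11 did not pass (adjusted p = 0.0834; 0.0332 with the replicate block; 0.0183 without siTAZ replicate 2, which lends its spread to the fit). The 2 genes are similar in sequence, and how the counts treated reads that match both is not given in the sources used here.

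BIRC3 and NFKBIE kept their call without any single library of the line. The others were lost without at least 1: RELB without siYAP replicate 3 (-0.47, adjusted p = 0.0661), TNFAIP3 without the same library (-0.59, adjusted p = 0.0669), and NFKBIA without siYAP replicate 1 (-0.66, adjusted p = 0.0617) or 3 (-0.61, adjusted p = 0.0749). NFKB2 was lost without siControl replicate 1 (-0.49, adjusted p = 0.109) or 2 (-0.45, adjusted p = 0.0812), or siYAP replicate 1 (-0.60, adjusted p = 0.0637) or 3 (-0.41, adjusted p = 0.156). The authors' deposited table gives adjusted p-values below 0.05 for the same 6 genes in this contrast, and of them marks BIRC3, at a log2 fold change of -1.09, as passing the authors' own cutoffs.

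**Figure D1:**
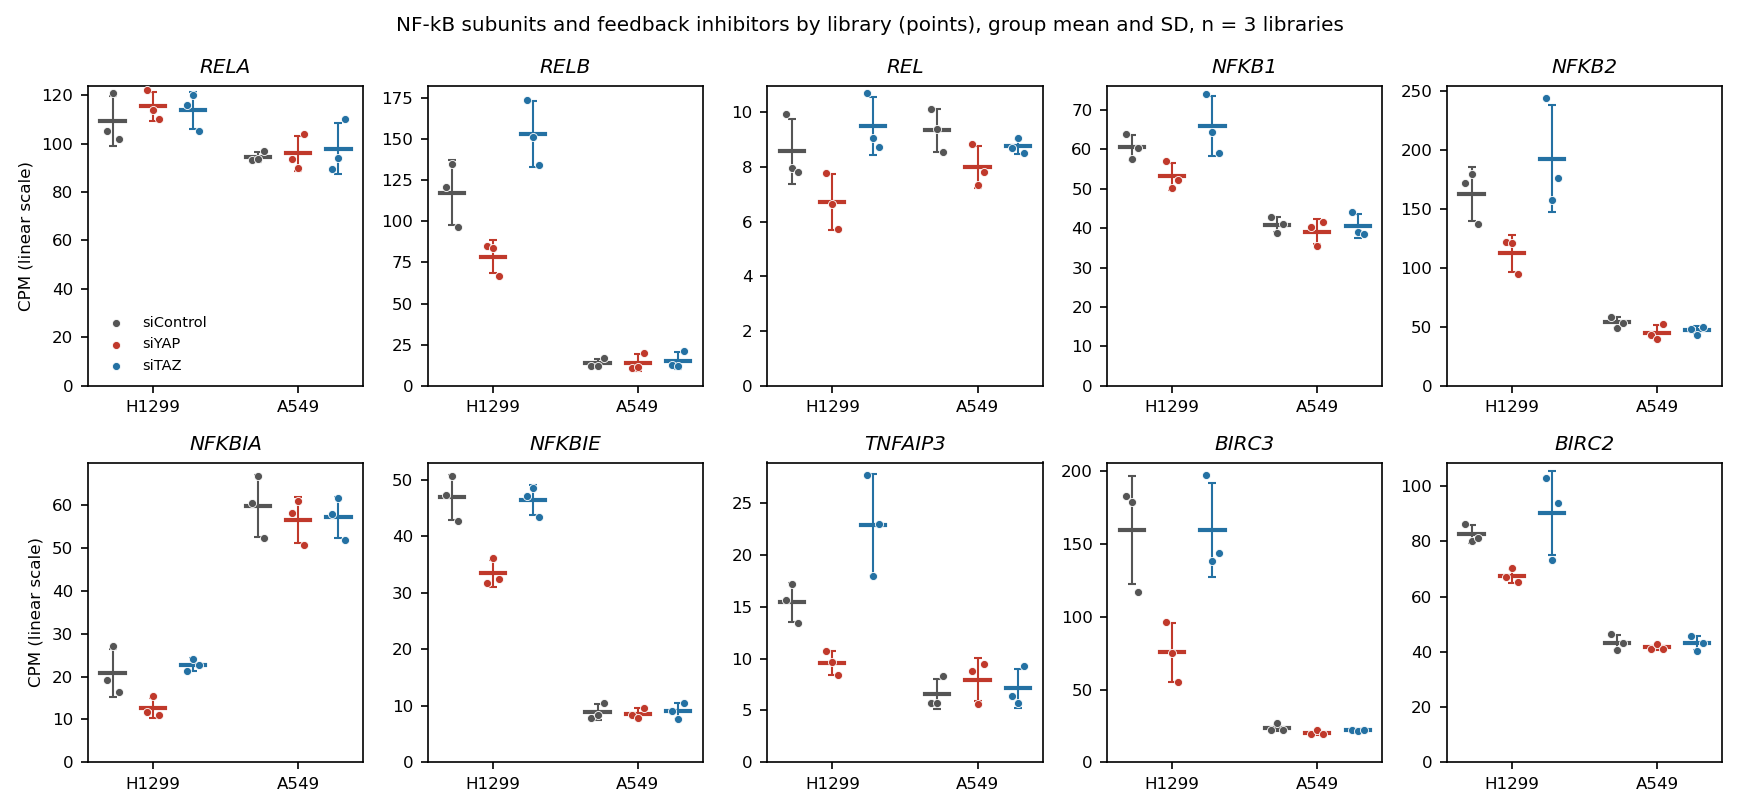
Level of each of the 10 genes in every library, in CPM on a linear scale from 0, by line and siRNA; points are libraries, the thick bar is the group mean and the thin bar the SD, n = 3. In H1299 the siYAP libraries lie below the controls for 9 of the 10 genes, RELA being the exception, and in A549 the groups lie close together. Control levels differ between the lines for most genes, and least on the log2 scale for RELA (-0.26) and REL (0.21, not called).

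TAZ knockdown in H1299 gave a different set of values. Of the 10 genes only TNFAIP3 was called, and it rose; 10.9% of all genes tested were called higher and 23.3% in either direction. TNFAIP3 was at 27.7, 17.9 and 22.9 CPM after siTAZ, each above the highest control of 17.2 CPM, and this held for 19.0% of all genes tested. The log2 change was 0.56 ± 0.15 (adjusted p = 0.0181). It was uneven between replicates: within a number it was 0.82, 0.06 and 0.76 on the log2 scale, and replicate 2 is the library that kept the most WWTR1. The call was lost without siControl replicate 1 (0.58, adjusted p = 0.055), siControl replicate 3 (0.47, adjusted p = 0.0786), siTAZ replicate 1 (0.40, adjusted p = 0.0871) or siTAZ replicate 3 (0.58, adjusted p = 0.0568). The median change of the 10 genes was 0.12, beside 0.01 over all genes. The siYAP and siTAZ contrasts share their control libraries, so their values are not independent.

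RELB came closest among the others. It was at 174, 151 and 134 CPM after siTAZ, with replicate 3 inside the range of the controls, and its log2 change was 0.37 ± 0.13 (adjusted p = 0.0562). It passed with the replicate block (0.38, adjusted p = 0.00151) and without siControl replicate 2 (0.48, adjusted p = 0.0213) or siYAP replicate 3 (0.39, adjusted p = 0.0454). NFKB2, at 244, 158 and 176 CPM, overlapped the controls and changed by 0.23 ± 0.15 (adjusted p = 0.292). BIRC3, the gene that fell most after siYAP, was at 197, 138 and 144 CPM and changed by 0.00 ± 0.20 (95% interval -0.43 to 0.42, adjusted p = 0.99). NFKBIE changed by -0.02 ± 0.09 (95% interval -0.22 to 0.18), and NFKBIA, at 21.2, 24.2 and 22.8 CPM, by 0.12 ± 0.17 (95% interval -0.24 to 0.48). RELA, REL, NFKB1 and BIRC2 had log2 changes between 0.06 and 0.14 and did not pass. Replicate 2 was the lowest siTAZ library for NFKB2, TNFAIP3, BIRC3 and BIRC2. It was the highest for RELA, NFKBIA and NFKBIE, and lay in between for RELB, REL and NFKB1. Without it, BIRC2 was called higher (0.26, adjusted p = 0.0375) and TNFAIP3 stayed called; whether its residual WWTR1 had a part was not tested.

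Set directly against each other, the knockdowns of H1299 differed in 7 of the 10 genes, each lower after siYAP than after siTAZ. Over all genes tested 6.1% were lower in this comparison and 11.7% were called in either direction, and the median of the 10 genes was -0.63 beside 0.01. TNFAIP3 differed most, with a log2 difference of -1.24 ± 0.16 (adjusted p = 0.000372). BIRC3 followed at -1.07 ± 0.20 (adjusted p = 0.00434) and RELB at -0.95 ± 0.13 (adjusted p = 0.000788). These 3 stayed called without any single library. NFKBIA differed by -0.83 ± 0.17, NFKB2 by -0.76 ± 0.16, NFKBIE by -0.46 ± 0.09 and BIRC2 by -0.41 ± 0.11, with adjusted p-values from 0.00668 to 0.0263. BIRC2 lost its call without siTAZ replicate 1 (-0.31, adjusted p = 0.102), siTAZ replicate 3 (-0.39, adjusted p = 0.0925), siYAP replicate 1 (-0.41, adjusted p = 0.0685) or siYAP replicate 3 (-0.39, adjusted p = 0.0977). NFKB1 (-0.30 ± 0.09, adjusted p = 0.0553) and REL (-0.49 ± 0.15, adjusted p = 0.0517) missed the threshold, and passed with the replicate block (adjusted p = 0.00854 and 0.00609). Both passed as well with DESeq2 (adjusted p = 0.0377 and 0.0303) and with library totals alone (adjusted p = 0.0323 and 0.0359). NFKB1 also passed without siTAZ replicate 3 (-0.38, adjusted p = 0.045), and REL without siControl replicate 2 (-0.49, adjusted p = 0.0487) or siYAP replicate 1 (-0.62, adjusted p = 0.041). RELA differed by 0.03 ± 0.09 (95% interval -0.16 to 0.22). In 9 of the 10 genes, all but RELA, every siYAP library was below every siTAZ library, which held for 15.1% of all genes tested.

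In A549 the changes of the same 10 genes were small. After siYAP, NFKB2 and BIRC3 were lower and 0 genes were higher; over all genes tested 3.17% were called lower and 5.68% in either direction. NFKB2 was at 58.4, 49.3 and 53.7 CPM in controls and at 43.5, 39.4 and 52.1 CPM after siYAP. The ranges overlapped because replicate 3 stayed high, and the difference within each number was -0.42, -0.32 and -0.04 on the log2 scale. The fit with the replicate number as a block, used for A549 throughout, gave -0.26 ± 0.05 (adjusted p = 0.00222), a drop of 16.6%. The call was lost without siControl replicate 2 (-0.24, adjusted p = 0.0528) or siYAP replicate 2 (-0.21, adjusted p = 0.172). BIRC3 was at 22.4, 27.1 and 22.4 CPM in controls and at 19.2, 22.1 and 19.2 CPM after siYAP. All treated libraries were below all controls, as in 3.39% of all genes tested, and the differences within a number were alike (-0.22, -0.29 and -0.22). The fitted log2 change was -0.25 ± 0.07 (adjusted p = 0.0214). It did not pass without siControl replicate 2 (-0.15, adjusted p = 0.471), nor without siYAP replicate 1 (-0.25, adjusted p = 0.0559), 2 (-0.30, adjusted p = 0.155) or 3 (-0.25, adjusted p = 0.0715), nor with DESeq2 (adjusted p = 0.157). Without the block none of the 10 genes was called, and 1 gene of the whole table was. The authors' deposited adjusted p in this contrast is 0.0293 for NFKB2 and 0.277 for BIRC3. Replicate 2 of siControl and of siYAP were the deepest libraries of the study, at 41009892 and 44983651 assigned reads, and the part of depth was not tested.

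The other 8 genes did not pass after siYAP in A549. TNFAIP3 was at 5.75, 5.71 and 8.27 CPM in controls and at 8.84, 5.64 and 9.46 CPM after siYAP, so that replicate 1 differed by 0.61 on the log2 scale and replicate 2 by -0.02. Its fitted change was 0.19 ± 0.12 (95% interval -0.05 to 0.42, adjusted p = 0.416). RELB was at 12.3, 11.9 and 17.0 CPM in controls and at 11.0, 11.3 and 20.2 CPM after siYAP, with replicate 3 the highest of each group, and changed by 0.01 ± 0.08 (95% interval -0.16 to 0.18). NFKBIA was at 60.4, 66.7 and 52.3 CPM in controls and at 58.1, 60.9 and 50.6 CPM after siYAP. It changed by -0.08 ± 0.05 (95% interval -0.18 to 0.01), and NFKBIE by -0.05 ± 0.10 (95% interval -0.25 to 0.15). The largest change that missed the threshold was that of REL, at 10.1, 9.38 and 8.53 CPM in controls and 8.84, 7.32 and 7.81 CPM after siYAP (-0.26 ± 0.10, adjusted p = 0.123). RELA, NFKB1 and BIRC2 changed by 0.01, -0.07 and -0.02.

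After siTAZ in A549, 1 of the 10 genes was called, NFKB2, which was lower; 6.12% of all genes tested were lower and 13.3% were called in either direction. NFKB2 was at 48.1, 43.3 and 49.8 CPM, below its own control within each number by 0.28, 0.19 and 0.11 on the log2 scale, although the ranges overlapped. The fitted change was -0.21 ± 0.05 (adjusted p = 0.00589). Without siControl replicate 1 it was -0.17 (adjusted p = 0.0814), without siControl replicate 2 it was -0.20 (adjusted p = 0.0532), and without the block it was not called. The authors' deposited adjusted p for NFKB2 in this contrast is 0.0731. BIRC3 was at 22.3, 21.3 and 22.4 CPM, lower than the control of the same number by 0.01 on the log2 scale in replicates 1 and 3 and by 0.35 in replicate 2. All 3 were below all controls, by a margin that rounding hides, as in 3.59% of all genes tested, but the change did not pass (-0.16 ± 0.07, adjusted p = 0.124). RELB, at 12.7, 12.1 and 21.4 CPM, changed by 0.12 ± 0.08 and TNFAIP3, at 6.36, 5.73 and 9.28 CPM, by 0.07 ± 0.12, and neither passed. The remaining 6 genes (RELA, REL, NFKB1, NFKBIA, NFKBIE and BIRC2) changed by between -0.11 and 0.03. Between siYAP and siTAZ in A549, edgeR called 0 of the 10 genes, while 7.04% of all genes were called. At an unadjusted p below 0.05 the count was also 0, and DESeq2 called 0. The differences of the 10 genes ran from -0.15 for REL to 0.12 for TNFAIP3, whose 95% interval, from -0.12 to 0.35, was the widest.

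**Figure D2:**
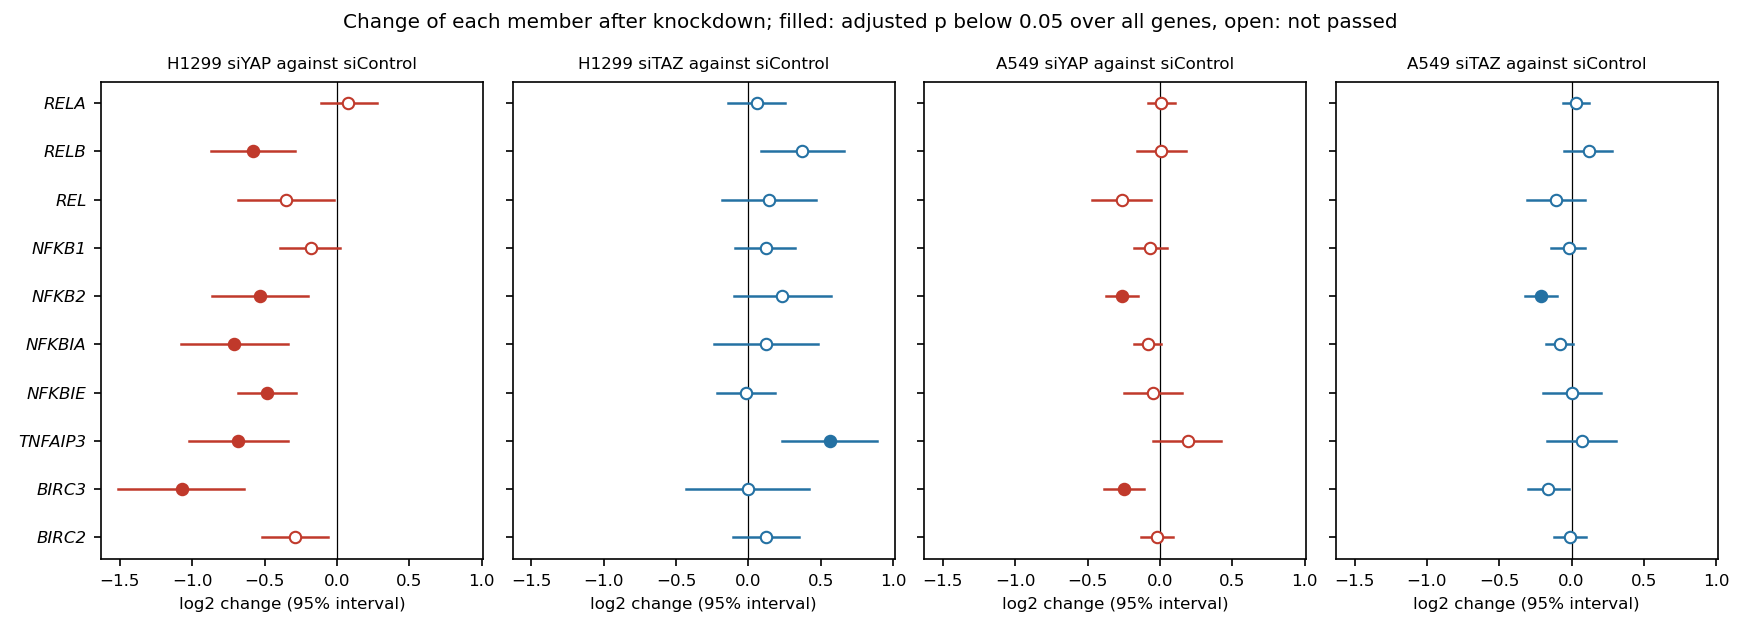
Log2 change of each gene in the 4 contrasts of a knockdown with its control, with the 95% interval of the edgeR fit; filled points had an adjusted p below 0.05 over all genes tested, open points did not. In H1299, 6 genes were lower after siYAP and TNFAIP3 was higher after siTAZ, and in A549 the called changes were those of NFKB2 and BIRC3, at -0.26 to -0.21.

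The widest differences measured for the 10 genes were those between the control cells of the lines. In A549, NFKBIA was 2.92 times as high as in H1299, and RELB, BIRC3, NFKBIE, NFKB2, TNFAIP3, BIRC2, NFKB1 and RELA were lower, so that 9 of the 10 genes were called. As 74.3% of all genes were called between the lines, 37.9% as lower and 36.4% as higher, this count is not far from the background. RELB had the widest gap, 118 ± 19.8 CPM in H1299 and 13.7 ± 2.80 CPM in A549, a log2 difference of -3.33 ± 0.16 (adjusted p = 5.87e-13). BIRC3 stood at 160 ± 37.2 and 24.0 ± 2.71 CPM (-2.78 ± 0.23, adjusted p = 1.59e-09). NFKBIE stood at 46.9 ± 4.04 and 8.95 ± 1.47 CPM (-2.46 ± 0.12, adjusted p = 3.14e-13). NFKBIA went the other way, with 20.9 ± 5.49 CPM in H1299 and 59.8 ± 7.23 CPM in A549 (1.54 ± 0.15, adjusted p = 1.48e-08).

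The other differences between the lines were smaller. NFKB2 was lower in A549 by -1.56 ± 0.17, TNFAIP3 by -1.27 ± 0.20, BIRC2 by -0.88 ± 0.11 and NFKB1 by -0.48 ± 0.10, with adjusted p-values of at most 0.0002. RELA was lower by -0.26 ± 0.09 (adjusted p = 0.0121), which was lost without H1299 siControl replicate 2 (-0.15, adjusted p = 0.126). REL differed by 0.21 ± 0.16 (95% interval -0.12 to 0.54, adjusted p = 0.244). The scale between the lines depends on the normalization: with library totals alone the median difference of all genes moved from -0.04 to -0.26, and 39.4% of the called genes were higher in place of 49.0%. On that scale RELA was at -0.49 (adjusted p = 8.76e-05), REL turned to -0.02 (adjusted p = 0.915), NFKBIA stayed higher at 1.32, and the other 7 genes stayed lower. Markers differed between the lines as well, and those of 1 list not all in the same direction. The summed mesenchymal markers were 2720 to 3360 CPM in H1299 controls and 1370 to 1820 CPM in A549 controls. VIM had a mean of 2830 CPM in H1299 and 587 CPM in A549 controls, and CDH2 of 45.4 and 24.6 CPM. FN1, at 60.7 and 1000 CPM, and ZEB1, at 26.1 and 29.5 CPM, were higher in A549. Line, medium and experiment cannot be told apart.

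**Figure D3:**
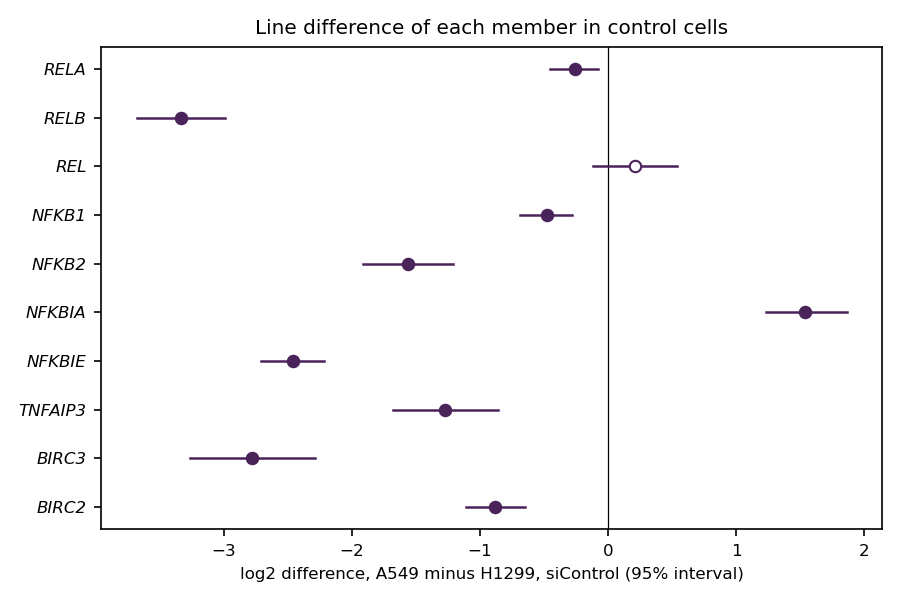
Difference of each gene between the control cells of the lines, on the log2 scale as A549 minus H1299, with the 95% interval of the joint edgeR fit; the open point, REL, had an adjusted p above 0.05. NFKBIA lies at 1.54 and RELB, the lowest, at -3.33.

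Levels between genes were compared as RPKM, CPM per kb of merged exons. In H1299 controls RELB (38.8 ± 6.54) and NFKB2 (36.4 ± 5.18) led, with overlapping ranges. BIRC3 (21.2 ± 4.95), RELA (20.0 ± 1.84), BIRC2 (18.2 ± 0.710) and NFKBIE (18.2 ± 1.57) formed the next step, each overlapping its neighbour. NFKB1 (9.67 ± 0.510) and NFKBIA (8.79 ± 2.31) overlapped below them, and TNFAIP3 (3.05 ± 0.372) and REL (0.651 ± 0.0905) were separate at the bottom. After siYAP, RELA, at 21.1 ± 1.13 RPKM, moved up to the third place, above BIRC2, and BIRC3, at 10.1 ± 2.71 RPKM, stood sixth, its range overlapping those of NFKBIE and NFKB1. A549 controls had another order. NFKBIA led at 25.2 ± 3.05 RPKM, then RELA (17.3 ± 0.375), NFKB2 (12.0 ± 1.01), BIRC2 (9.57 ± 0.628) and NFKB1 (6.53 ± 0.326), all without overlap. RELB (4.53 ± 0.923), NFKBIE (3.47 ± 0.568) and BIRC3 (3.19 ± 0.361) overlapped in turn, and TNFAIP3 (1.30 ± 0.289) and REL (0.709 ± 0.0594) came last in A549 as in H1299. With the longest transcript as length, RELA stood above BIRC3 in H1299 and BIRC3 above NFKBIE in A549.

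The make-up of the subunit transcripts differed accordingly. Of the summed RPKM of the 5 subunits in H1299 controls, RELB made up 36.6% ± 1.72, NFKB2 34.4% ± 0.969, RELA 19.0% ± 1.44, NFKB1 9.27% ± 1.35 and REL 0.621% ± 0.0922 (n = 3). In A549 controls RELA was the largest share at 42.2% ± 1.58, NFKB2 was at 29.2% ± 1.71, NFKB1 at 15.9% ± 0.475, RELB at 11.0% ± 1.88 and REL at 1.73% ± 0.179. RELB transcript exceeded that of RELA 1.94 ± 0.210 times in H1299 controls and stood at 0.261 ± 0.0471 times in A549 controls. In H1299 the ratio went to 1.22 ± 0.121 after siYAP and to 2.42 ± 0.248 after siTAZ, with no overlap between the 3 groups. In A549 it was 0.262 ± 0.0756 after siYAP and 0.279 ± 0.0634 after siTAZ, with ranges that overlapped the controls. With the longest transcript as length the H1299 ratios were 1.49, 0.943 and 1.87, so that RELB after siYAP then stood beside RELA and not above it. The ratio of BIRC3 to BIRC2 in H1299 was 1.16 ± 0.259 in controls, 0.673 ± 0.176 after siYAP and 1.07 ± 0.126 after siTAZ. That of NFKB2 to NFKB1 was 3.77 ± 0.606, 2.97 ± 0.430 and 4.06 ± 0.593, and the controls overlapped both knockdowns. In an exact two-sided permutation test over 3 against 3 libraries the smallest p possible is 0.1. That was the p of each RELB to RELA comparison within H1299, and 0.21 after adjustment over the 21 ratio comparisons made, so none could pass. Shares of transcript say nothing of the amount of protein or of dimers.

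**Figure D4:**
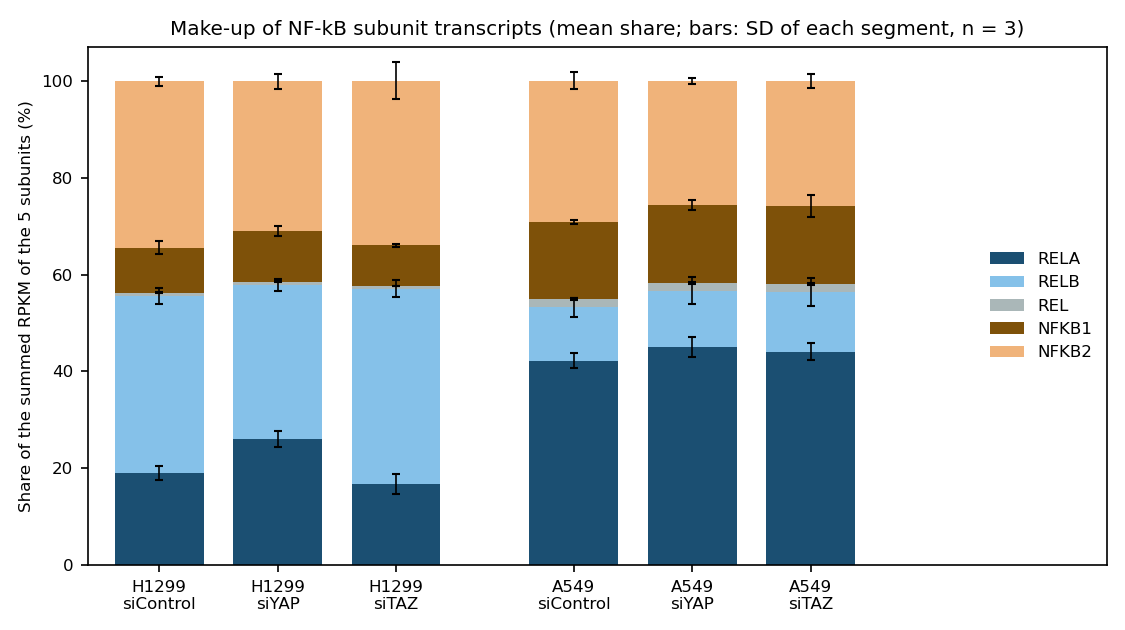
Share of each subunit in the summed RPKM of the 5 NF-kB subunits, in percent, as the mean of 3 libraries per group; thin bars give the SD of each segment. RELB and NFKB2 make up most of the H1299 bars, and RELA is the largest segment in A549 at 42.2% of the control bar.

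Whether a knockdown acted differently in the lines was tested as an interaction in the joint fit. For siYAP 1 of the 10 genes passed, as a higher value; 1.31% of all genes tested did so, and 2.26% passed in either direction. With library totals alone 42.6% of the called genes were higher in place of 57.8%. TNFAIP3 had fallen in H1299 and had not in A549, and the difference of the changes, A549 minus H1299, was 0.90 ± 0.23 (adjusted p = 0.0434). NFKBIA (0.63 ± 0.19, adjusted p = 0.0788), NFKBIE (0.44 ± 0.13, adjusted p = 0.0858), RELB (0.59 ± 0.19, adjusted p = 0.0952) and BIRC3 (0.83 ± 0.27, adjusted p = 0.0982) lay in the same direction and missed the threshold. With the replicate block in both lines these 4 and TNFAIP3 passed, with adjusted p-values of the 4 from 0.00109 to 0.0165, and 1712 genes were called in place of 358. Without H1299 siControl replicate 3, BIRC3 (1.01, adjusted p = 0.0467), NFKBIA (0.78, adjusted p = 0.0389) and RELB (0.72, adjusted p = 0.0467) passed as well, and without H1299 siYAP replicate 2 NFKBIA (0.78, adjusted p = 0.0139) and NFKBIE (0.49, adjusted p = 0.0361) did. Without any block none of the 10 passed, and TNFAIP3 was at 0.95 (adjusted p = 0.281). TNFAIP3 also lost its call without any 1 of the 9 A549 libraries (0.77 to 1.04, adjusted p from 0.06 to 0.134), and without H1299 siControl replicate 1 (0.89, adjusted p = 0.0923), siTAZ replicate 3 (0.89, adjusted p = 0.0521), or siYAP replicate 1 (0.98, adjusted p = 0.0678) or 3 (0.81, adjusted p = 0.12). NFKB2 differed by 0.27 ± 0.20 (95% interval -0.14 to 0.68), BIRC2 by 0.24 ± 0.13 (95% interval -0.04 to 0.52), and REL, NFKB1 and RELA by 0.11, 0.12 and -0.07. The drop of YAP1 itself was smaller in A549, with an interaction of 0.71 ± 0.17 (adjusted p = 0.0357). That call was lost without any block (0.72, adjusted p = 0.167) and without any 1 of the 9 A549 libraries (0.63 to 0.79, adjusted p from 0.0555 to 0.136). It was also lost without H1299 siControl replicate 1 (0.69, adjusted p = 0.0815) or 3 (0.75, adjusted p = 0.0529), or siYAP replicate 1 (0.62, adjusted p = 0.104) or 3 (0.57, adjusted p = 0.109). The part of YAP1 levels in the differences of the 10 genes was not tested.

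For siTAZ, edgeR called 0 of the 10 genes in the interaction, while 5.96% of all genes were called, 54.3% of them as higher (28.7% with library totals alone). At an unadjusted p below 0.05 there were 2, NFKB2 (-0.44 ± 0.20) and TNFAIP3 (-0.48 ± 0.22), and DESeq2 called 0. The other 8 genes (RELA, RELB, REL, NFKB1, NFKBIA, NFKBIE, BIRC3 and BIRC2) differed by between -0.25 and 0.03. With the replicate block in both lines NFKB2 passed (-0.43, adjusted p = 0.0319). Without H1299 siTAZ replicate 2, NFKB2 (-0.57, adjusted p = 0.0455) and TNFAIP3 (-0.64, adjusted p = 0.0413) passed. WWTR1 itself differed between the lines by 0.76 ± 0.33 in its response to siTAZ (adjusted p = 0.163).

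The rest of the pathway was read through 5 lists of other genes. As the lists were chosen with earlier results of these data known, their counts are a description. Beside them stand the shares over all genes tested after siYAP in H1299, 8.75% called lower and 16.6% in either direction. In H1299 after siYAP, 2 of 21 receptors and adaptors tested were higher and 2 lower, the latter including TRAF2, the adaptor that binds the BIRC3 and BIRC2 proteins (-0.50 ± 0.09, adjusted p = 0.00333), and IL1RAP, a subunit of the interleukin 1 receptor (-0.94 ± 0.21, adjusted p = 0.00985). Of 16 kinases and ubiquitin ligases that activate NF-kB, 0 were higher and 2 lower, TAB2 (-0.54 ± 0.11) and MAP3K14 (-0.52 ± 0.15, adjusted p = 0.0318). Of 18 other inhibitors and atypical IkB genes, 0 were higher and 5 lower, with OTULIN, which removes linear ubiquitin chains (-0.71 ± 0.12), and TNIP2, a partner of A20 (-0.46 ± 0.08), at an adjusted p of 0.00262 each. Among 11 survival and surface targets 2 were lower, IER3 (-0.65 ± 0.14) and the transcription factor IRF1 (-0.58 ± 0.13, adjusted p = 0.011), and among 4 cytokine targets 1, the chemokine CXCL2 (-0.62 ± 0.15). Without single libraries some of these calls were lost: IL1RAP without siControl replicate 1 (-0.67, adjusted p = 0.0529) or siYAP replicate 3 (-0.78, adjusted p = 0.056), IRF1 without siYAP replicate 3 (-0.53, adjusted p = 0.0564), and CXCL2 without siControl replicate 1 (-0.56, adjusted p = 0.071) or siYAP replicate 1 (-0.63, adjusted p = 0.0514) or 3 (-0.63, adjusted p = 0.0537). The lower inhibitors not named lost their call in 7 to 11 of the 18 alternative fits, and the 2 higher receptors in 6 and 8. The list medians ran from -0.26 to -0.06, beside 0.01 over all genes. With library totals alone, 42.2% of the called genes of the table were lower in place of 52.6%.

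After siTAZ in H1299, 10.9% of all genes tested were called higher and 23.3% in either direction. Of the 21 receptors and adaptors tested, 3 were higher and 3 lower. IL1R1, the receptor of interleukin 1, rose by 0.77 ± 0.15 on the log2 scale, and its partner IL1RAP fell by 1.13 (SE 0.21). Of the 16 kinases and ligases 2 were higher and 3 lower, among the latter UBE2N (-0.56 ± 0.10), which builds chains for TRAF6, and CHUK, the kinase IKK alpha (-0.39 ± 0.10). Of the 18 other inhibitors 3 were higher and 1 lower. CYLD, a deubiquitinase that restrains the pathway, rose by 0.78 ± 0.15 (adjusted p = 0.00289), and OTULIN changed by -0.48 ± 0.12. Of the survival and surface targets 2 were higher, the adhesion molecule ICAM1 by 1.33 ± 0.26 (9.03 ± 1.99 to 22.8 ± 9.76 CPM, adjusted p = 0.00361) and IRF1 by 0.58 ± 0.13, and CXCL2 was the 1 lower cytokine (-0.53 ± 0.15). IRF1 thus had the signs of TNFAIP3, lower after siYAP and higher after siTAZ. CHUK lost its call without siControl replicate 1 (-0.35, adjusted p = 0.078) or 3 (-0.36, adjusted p = 0.0592) or siTAZ replicate 3 (-0.32, adjusted p = 0.0985). OTULIN lost it without siTAZ replicate 3 (-0.42, adjusted p = 0.0679), and CXCL2 without siControl replicate 1 (-0.45, adjusted p = 0.105) or siTAZ replicate 3 (-0.33, adjusted p = 0.094). The 2 higher kinases and ligases lost their call in 6 and 7 of the 18 alternative fits, and the higher inhibitors other than CYLD in 3 and 11. The list medians ran from -0.04 to 0.34, beside 0.01. With library totals alone, 36.9% of the called genes were lower in place of 53.3%.

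In A549 after siYAP each of the 5 lists, of 8 to 21 genes tested, had 1 gene lower and 0 higher, where 3.17% of all genes tested were lower. The list medians ran from -0.14 to 0.05, beside 0.00 over all genes. The lower genes were the receptor TNFRSF12A (-0.30 ± 0.06), MAP3K14 (-0.31 ± 0.06), OTULIN (-0.30 ± 0.07), IER3 (-0.26 ± 0.05) and the chemokine CXCL5 (-0.28 ± 0.05). Without siControl replicate 2 the changes of TNFRSF12A, IER3 and CXCL5 were -0.19, -0.20 and -0.20, with adjusted p-values of 0.102, 0.0772 and 0.0526. Without siYAP replicate 2 they were -0.29, -0.22 and -0.26, with adjusted p-values of 0.0674, 0.113 and 0.0739. DESeq2 did not call TNFRSF12A (adjusted p = 0.139) or CXCL5 (adjusted p = 0.12). After siTAZ, 7.21% of all genes tested were higher and 6.12% lower. Of the receptors and adaptors 4 were higher and 2 lower, led by IL1R1 (0.47 ± 0.05) and TNFRSF12A (-0.43 ± 0.06). The higher ones other than IL1R1 each lost their call in 8 to 15 of the 18 alternative fits, and the other lower one in 6. MAP3K14 was the 1 lower kinase (-0.43 ± 0.06, adjusted p = 4.39e-06), and BCL3, an atypical IkB that binds the NFKB1 and NFKB2 products, the 1 higher inhibitor (0.26 ± 0.05). Of 12 survival and surface targets PTGS2 was higher (0.35 ± 0.04) and BCL2L1 lower (-0.14 ± 0.04, adjusted p = 0.0231), a call lost without any 1 of 5 libraries, siControl replicates 1 and 2 and the 3 siTAZ replicates (-0.15 to -0.09, adjusted p from 0.0507 to 0.273). Of 8 cytokine targets 5 were lower, led by CXCL5 (-0.78 ± 0.05) and CXCL1 (-0.57 ± 0.10), and DESeq2 did not call 2 of the 5, CXCL2 (adjusted p = 0.148) and CXCL8 (adjusted p = 0.0622). The cytokine list had a median of -0.44, and the medians of the other lists ran from -0.03 to 0.08. None of these A549 calls passed without the replicate block.

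MAP3K14, which encodes the NIK kinase of the noncanonical route, was called lower in all 4 contrasts; in H1299 after siTAZ it changed by -0.45 ± 0.15 (adjusted p = 0.0485). It was at 56.8 ± 9.85 CPM in H1299 controls, 39.4 ± 8.57 after siYAP and 41.9 ± 4.61 after siTAZ, and at 32.5 ± 5.26, 26.8 ± 5.03 and 24.8 ± 5.59 CPM in A549. Its range overlapped that of the controls in H1299 after siYAP and in A549 after either knockdown, but not in H1299 after siTAZ. The contrasts of a line share their controls, and how many of all genes were lower in all 4 was not counted. In H1299 the siYAP call was lost without siControl replicate 1 (-0.56, adjusted p = 0.0712) or 2 (-0.38, adjusted p = 0.0989), or siYAP replicate 1 (-0.44, adjusted p = 0.124) or 3 (-0.43, adjusted p = 0.139). The siTAZ call was lost without siControl replicate 1 (-0.46, adjusted p = 0.0986) or 2 (-0.30, adjusted p = 0.162), siTAZ replicate 1 (-0.46, adjusted p = 0.0901) or 3 (-0.34, adjusted p = 0.206) or siYAP replicate 3 (-0.43, adjusted p = 0.0604), and with library totals alone (-0.38, adjusted p = 0.0908). In A549 the siYAP call was lost without replicate 2 of siControl (-0.20, adjusted p = 0.175) or of siYAP (-0.24, adjusted p = 0.165), and both calls were lost without the block.

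The genes whose pattern over the libraries was most like that of 4 of the genes were ranked by Pearson's r of log2 CPM over the 18 libraries. The mean of each line, and in A549 of each replicate number, was removed first, and 9577 genes with at least 5 CPM in both lines were compared. They were VHL (0.956), TGFBI (0.948) and SOCS6 (0.946) for NFKBIA. IRF1 (0.940), CUEDC1 (0.930) and LIMD1 (0.907) came out for TNFAIP3, AFAP1 (0.971), CDK6 (0.951) and ELF4 (0.950) for BIRC3, and TJP1 (0.959), ZNF395 (0.958) and TGFB1 (0.949) for RELB. The libraries share knockdown groups and, in H1299, replicate numbers, so these values describe the libraries and carry no test.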

How the data were processed

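Poly(A) RNA of 18 libraries was analysed, 3 for each of 6 groups of line and siRNA, grouped and numbered by the sample titles. Cutadapt, STAR 2.4.2a, DESeq2 and the build GRCh38 are named, per the submitters' processing notes; which program counted the reads, with what annotation and strand setting, is not given in the sources used here. What the authors deposited for each line is a table of raw counts by gene symbol, every row reaching 6 or more in its highest library. Its deposited signal columns are counts divided by a size factor, the deposited log2 columns hold regularized or batch-adjusted values and log2 fold changes, and the deposited p-value columns hold the authors' p and adjusted p, per the file headers. Only the counts were tested; 0 per-sample columns were left unmapped.

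Counts were filtered with filterByExpr by group, scaled by TMM and compared with edgeR 4.0.16's quasi-likelihood F test (limma 3.58.1, R 4.3.3) over the 9 libraries of a line, p-values adjusted by Benjamini-Hochberg over all genes. For A549 the replicate number was a block, as the authors' A549 columns are batch-adjusted, per the file headers; for H1299 it was not. A joint fit of 18 libraries tested line differences and interactions. Errors of log2 changes are standard errors; n = 3 libraries per group. Libraries of the same number deviated together (r 0.108 to 0.383 in H1299, 0.384 to 0.729 in A549, all above 0.1, against -0.324 to 0.16 and -0.55 to 0.279 for different numbers), so the number was taken to pair them; what it stands for is not given. The main H1299 fits and the permutation tests of ratios do not use this pairing; H1299 values with the block are given where they change a call. The fits within each line were also run on simulated counts with changes planted in siYAP only. Those counts held no effect of the replicate number in H1299, and the joint fit was not simulated, so they cannot vouch for either. Exon lengths and positions came from GENCODE 29, which held 97.9% of the symbols, and promoters from RefSeq.

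Alternatives were the block, DESeq2 1.42.0, RLE factors, no filter, only the groups compared, each library and each number left out and, chosen after seeing the data, library totals alone. The genes and lists were chosen with earlier results of these data known. All 10 genes enter every comparison, by name or within a stated range; of each list are named at most 2 called genes with the smallest adjusted p per knockdown.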

Additional observations from a re-analysis of the deposited data

Results flagged for a closer look

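TNFAIP3 was singled out because its response to siYAP differed between the lines by the test of the difference itself. The interaction was 0.9 on the log2 scale (SE 0.23, adjusted p = 0.0434 with edgeR), with a change of -0.68 in H1299 and of 0.19 in A549. Within numbers the change was -0.54, -0.83 and -0.67 in H1299 and 0.61, -0.02 and 0.19 in A549. The test lost its call without a block (0.95, adjusted p = 0.281) and in 13 of the 18 fits that left out 1 library.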

How the results depend on the processing

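No change of direction of a called gene was seen under the alternatives. With the replicate block, 8 of the 10 genes were called in H1299 after siYAP in place of 6, 2 after siTAZ in place of 1, and 9 between siYAP and siTAZ in place of 7. With no replicate block, 0 of the 10 were called in A549 after siYAP (main 2) or siTAZ (main 1). For the difference of the siYAP response between lines (main 1), a replicate block in both lines gave 5, no replicate block 0 and DESeq2 3; for siTAZ (main 0), a block in both lines gave 1. DESeq2 gave 2 in H1299 after siTAZ and 1 in A549 after siYAP, and library totals alone, chosen after seeing the data, 2 in H1299 after siTAZ. Between siYAP and siTAZ in H1299, DESeq2 and library totals alone each called NFKB1 and REL in addition. Leaving out 1 library gave 2 to 7 in H1299 after siYAP, 0 to 2 after siTAZ and 6 to 8 between them, 0 to 2 and 0 to 1 in A549, 0 to 4 and 0 to 2 for the differences of response, and 8 to 9 between the lines (main 9). Leaving out all libraries with number 1, 2 or 3 gave 1, 7 and 1 in H1299 after siYAP and 0, 4 and 0 after siTAZ. It gave 3 without number 1 or 3 between siYAP and siTAZ, and 0 in A549 after either knockdown without number 1 or 2. Over all genes tested, the replicate block gave 4461 calls in place of 2625 in H1299 after siYAP, 5606 in place of 3680 after siTAZ and 3399 in place of 1846 between them. Without it A549 gave 1 in place of 909, 1 in place of 2134 and 2 in place of 1127, and DESeq2 gave 363, 1139 and 518. For the differences of response, a block in both lines gave 1712 (main 358) and 2797 (main 943), no block 13 and 60, and DESeq2 746 for siYAP. Leaving out 1 library gave 1124 to 3076, 1715 to 4301 and 856 to 2102 in H1299, 164 to 1027, 1057 to 2142 and 308 to 1276 in A549, and 46 to 1373 and 222 to 2025 for the differences of response. Assigned reads differed 4.21 times between A549 libraries and 1.24 times between H1299 libraries.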
